A study of Sus scrofa with 120 samples.

Results

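Activin A and the transforming growth factor beta (TGF-beta) ligands are secreted signals that act through the same kind of serine/threonine kinase receptors and the same SMAD2 and SMAD3 transcription factors. Cells that receive such a signal switch on their own brakes. These include an inhibitory SMAD that blocks the receptor and nuclear co-repressors that silence SMAD target genes. In cartilage, TGF-beta signalling is known for maintaining the matrix-making state of chondrocytes, and activin A is known as a factor that cultured cartilage releases after mechanical injury.

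The genes described here are 10 of the 31907 gene identifiers measured, each found by its symbol as 1 row of the deposited count table. They are the activin A subunit gene INHBA, the genes of the activin-binding proteins follistatin (FST) and FSTL3, the ligand genes TGFB1, TGFB2 and TGFB3, and the intracellular inhibitors SMAD7, PMEPA1, TGIF1 and SKIL. Their roles are known from human and mouse. They were followed across all 30 groups of a study of primary pig chondrocytes, the cells that make cartilage matrix, from femoral cartilage, embedded in 2% agarose. The study set the transcriptional answer to TRPV4 activation beside that to PIEZO1, both of them mechanically gated calcium channels, and 120 RNA-seq libraries were made, 4 per group.

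The TRPV4 experiment held 48 libraries at 3 h and 9 h after the start of a stimulus. Its groups were the TRPV4 agonist GSK101 at 1 nM, cyclic compression at 1 Hz to 10% deformation for 3 h (loading) with or without the TRPV4 antagonist GSK205 at 10 uM, GSK205 alone, the inflammatory cytokine IL-1 at 1 ng/mL, and free-swelling DMSO vehicle. The PIEZO1 experiment held 72 libraries at the same times. Cells received siRNA against PIEZO1 (siPIEZO1), a non-targeting siRNA (siNTC) or no transfection (NT), and constructs were then compressed slowly to 80% deformation, given the PIEZO1 agonist Yoda1 at 5 uM, or kept free-swelling in DMSO vehicle. The sample labels write mM for the GSK205 and Yoda1 doses where the series description writes uM, and IL-1a where it writes IL-1. Neither names the age, sex or number of pigs, and p-values therefore speak of library-to-library spread alone, which may be technical.

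A set of 3 siRNAs was pooled in the siPIEZO1 groups. They are shown because they define the only genetic perturbation of the series. The labels give them 5′ to 3′ as written, without naming the strand, and PIEZO1 lies on chromosome 6.
siPIEZO1a: cagcgagaucucgcacuccauc
siPIEZO1b: uacgaccugcugcagcuccug
siPIEZO1c: acccgcuggccaugcaguucuu

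PIEZO1 itself stood at 4.17, 4.98, 4.62 and 5.13 CPM, read counts relative to the library's total, in siPIEZO1 vehicle libraries at 3 h, against 3.71, 5.11, 6.98 and 6.75 CPM in siNTC vehicle libraries. At 9 h it stood at 2.26, 4.26, 4.53 and 2.78 CPM with siPIEZO1 and at 6.55, 6.45, 5.31 and 3.76 CPM with siNTC. Neither difference passed the test (log2 fold changes of -0.24 ± 0.19 and -0.66 ± 0.23, adjusted p = 0.576 and 0.0619). The mean of PIEZO1 was lower with siPIEZO1 than with siNTC in vehicle, compression and Yoda1 at both times. With Yoda1 the groups did not overlap, at 4.16 to 5.62 CPM with siPIEZO1 and 5.74 to 9.34 CPM with siNTC at 3 h, and at 3.69 to 4.55 CPM with siPIEZO1 and 5.26 to 7.21 CPM with siNTC at 9 h. The difference was tested in vehicle and not under compression or Yoda1. PIEZO1 overlaps the gene CTU2, so the 2 may share reads. CPM here use library totals after TMM scaling (trimmed mean of M-values). Errors after CPM are SDs and after log2 fold changes SEs. Tests are quasi-likelihood tests of edgeR, adjusted by Benjamini and Hochberg's method over every gene tested, and a gene passed where its adjusted p lay under 0.05.

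Libraries held 20651530 to 80223797 counts in the TRPV4 experiment and 36807992 to 66240251 in the PIEZO1 experiment. Replicates of a group correlated across genes at r = 0.9885 to 0.9972 and at 0.9601 to 0.9937. The chondrocyte markers, all 10 of 10 found, summed to 74430 to 139100 CPM in TRPV4 libraries and 15280 to 43800 CPM in PIEZO1 libraries. The leukocyte, endothelial, and adipocyte and erythroid lists summed to at most 98.1, 9.72 and 2.98 CPM in any library. The fibroblast and synovium list, 6 of 7 found, summed to 385 to 1230 CPM in TRPV4 libraries and 267.5 to 2728 CPM in PIEZO1 libraries. The kits of the experiments differed, so levels are not compared between them, nor between genes. In bulk RNA, fewer cells of a type and less RNA per cell cannot be told apart. Of the 10 genes, FST was too low for the test in the TRPV4 experiment, where it reached at most 0.382 CPM in any library, so 9 were tested there and all 10 in the PIEZO1 experiment.

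INHBA encodes the beta-A subunit, which pairs with itself to form activin A. RefSeq places it on chromosome 12 of Sscrofa11.1 (53115379 to 53117128), in an entry of type 'other'. The deposited table carries no coordinates, so whether the counted gene model lies there could not be checked. With the TRPV4 agonist GSK101 for 3 h, INHBA stood at 145, 144, 140.1 and 109 CPM, against 4.63, 3.98, 2.54 and 4.36 CPM with DMSO. At 9 h it stood at 398, 391, 369.8 and 368 CPM with GSK101, against 4.97, 3.38, 5.12 and 3.31 CPM with DMSO. No GSK101 library came near a DMSO library. INHBA rose by a log2 fold change of 5.15 ± 0.13 at 3 h and 6.51 ± 0.13 at 9 h (adjusted p = 5.54e-24 and 4.85e-28), and the 9 h effect was larger than the 3 h effect by 1.40 ± 0.21 (adjusted p = 1.21e-07). At 3 h it ranked 11 of 16562 genes by log2 fold change.

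Mechanical loading also raised INHBA, by less. The loaded libraries held 13.8, 13.0, 14.6 and 10.1 CPM at 3 h, all above the DMSO libraries, with a log2 fold change of 1.76 ± 0.14 (adjusted p = 7.37e-11). At 9 h, after loading had stopped, they held 5.21, 5.39, 8.32 and 7.31 CPM, and all again lay above the 4 DMSO libraries. The log2 fold change was 0.61 ± 0.15 (adjusted p = 0.00297), smaller than at 3 h by 1.12 ± 0.22 (adjusted p = 0.000533). IL-1 gave 13.5, 13.6, 13.0 and 13.5 CPM at 3 h, with a log2 fold change of 1.81 ± 0.14, and 11.5, 10.4, 8.07 and 9.00 CPM at 9 h, with one of 1.21 ± 0.15 (adjusted p = 2.33e-12 and 9.33e-09). GSK101 exceeded IL-1 by 3.34 ± 0.11 at 3 h and 5.29 ± 0.12 at 9 h (adjusted p = 4.51e-21 and 4.45e-27). In the order of the 12 group means, GSK101 at 9 h and then at 3 h stood apart from every other group, and each of the other groups overlapped its neighbour, from IL-1 and loading at 3 h down to GSK205 at 9 h.

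**Figure D1:**
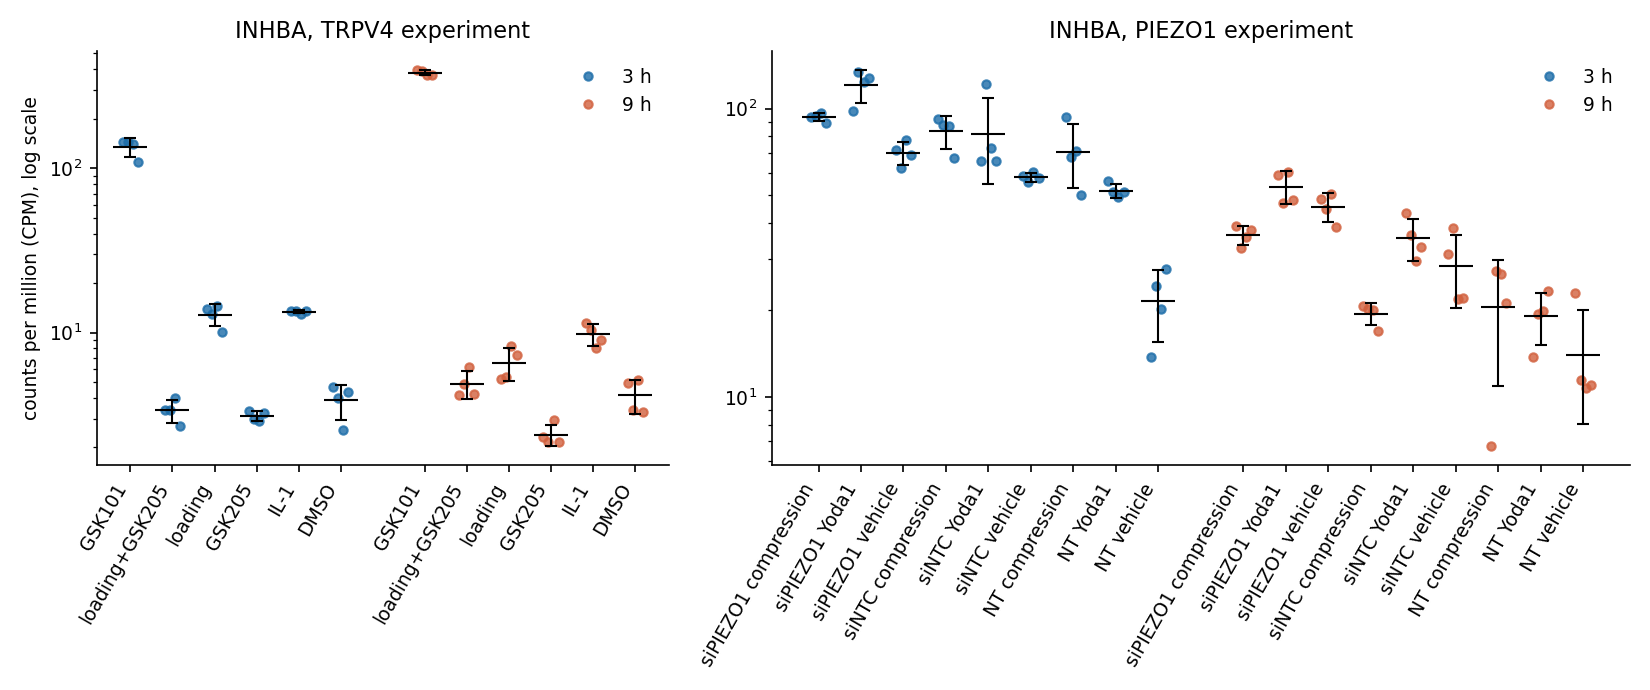
INHBA in every library, in CPM on a log axis, in the TRPV4 experiment (left) and the PIEZO1 experiment (right), 3 h in blue and 9 h in orange, with the mean (bar) and SD (whiskers) of 4 libraries per group. GSK101 libraries lie between 109 and 398 CPM and every other TRPV4 library lies under 15 CPM, while in the PIEZO1 experiment 3 h groups lie mostly above 9 h groups.

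With GSK205 during loading, the INHBA values at 3 h overlapped those of DMSO. The libraries loaded with GSK205 had 3.36, 3.37, 4.02 and 2.71 CPM, a log2 fold change of -1.96 ± 0.13 against loading alone (adjusted p = 6.97e-12). Against GSK205 alone, at 3.34, 2.97, 2.91 and 3.25 CPM, loading with GSK205 gave 0.10 ± 0.16 (95% interval -0.21 to 0.41, adjusted p = 0.775). The loading effect was thus smaller in the presence of GSK205 by 1.66 ± 0.21 (adjusted p = 2.58e-05). At 9 h the values were 4.15, 4.88, 6.20 and 4.26 CPM for loading with GSK205 and 2.32, 2.16, 2.93 and 2.17 CPM for GSK205 alone, a log2 fold change of 1.00 ± 0.18 (adjusted p = 0.000159). GSK205 alone was below DMSO at 9 h (-0.79 ± 0.19, adjusted p = 0.00276), and at 3 h the difference was -0.30 ± 0.16 (adjusted p = 0.183, and 0.0238 without DMSO library 3). The 9 h interaction was 0.39 ± 0.24 (adjusted p = 0.406). The DMSO, GSK205 and loading groups are shared by these comparisons.

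TGFB1 encodes the ligand TGF-beta 1 and lies on chromosome 6 (49332169 to 49348642), where it overlaps LOC110261354. At 3 h TGFB1 followed INHBA in the loading and GSK205 groups. Loaded libraries held 66.3, 67.5, 65.0 and 58.8 CPM at 3 h, against 34.7, 32.6, 34.5 and 39.6 CPM with DMSO, and the groups did not overlap (log2 fold change 0.88 ± 0.09, adjusted p = 1.26e-08). With loading and GSK205 it had 32.2, 36.3, 38.7 and 31.3 CPM, all below loading alone (-0.91 ± 0.08, adjusted p = 6.09e-09). GSK205 alone gave 31.9, 32.5, 30.8 and 26.6 CPM. The loading effect was smaller with GSK205 by 0.70 ± 0.12 (adjusted p = 0.00146). At 9 h TGFB1 with loading and GSK205 still lay below loading alone, by -0.59 ± 0.07 (adjusted p = 1.54e-06). INHBA overlapped between these groups at 9 h, at 4.15 to 6.20 CPM with GSK205 and 5.21 to 8.32 CPM without it.

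SMAD7, the inhibitory SMAD that blocks the activated receptor (chromosome 1, 98512800 to 98543924), took the opposite direction in the interaction. At 3 h GSK205 alone put SMAD7 at 2.77, 2.87, 2.54 and 2.36 CPM, against 8.32, 7.85, 8.66 and 9.29 CPM with DMSO, a log2 fold change of -1.69 ± 0.13 (adjusted p = 4.26e-11). Loading with GSK205 put it at 12.9, 15.6, 14.4 and 13.8 CPM, and loading alone at 15.8, 20.9, 24.8 and 16.9 CPM. The loading effect was therefore 2.42 ± 0.12 in the presence of GSK205 and 1.21 ± 0.11 without it (adjusted p = 6.56e-15 and 1.37e-09), and the difference of 1.21 ± 0.16 passed the test (adjusted p = 6.66e-05). At 9 h GSK205 alone gave 9.61, 7.30, 9.08 and 7.17 CPM and DMSO 7.56, 7.67, 7.64 and 6.83 CPM, overlapping values with a log2 fold change of 0.14 ± 0.10 (adjusted p = 0.337). The direction under loading had also turned. SMAD7 was lower in loaded than in DMSO libraries at 9 h by -0.32 ± 0.10 (adjusted p = 0.0157), a call lost without DMSO library 2 or loading library 1 or 4 (adjusted p up to 0.074). The effect of loading was lower at 9 h than at 3 h by -1.50 ± 0.15 (adjusted p = 1.03e-10).

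PMEPA1 encodes a membrane protein that sequesters SMAD2 and SMAD3 and is itself a TGF-beta target (chromosome 17, 57999287 to 58054329). Its rise under loading was still present at 9 h. It stood at 92.6, 95.9, 107.6 and 83.5 CPM in loaded libraries at 3 h, against 30.1, 32.0, 29.6 and 34.0 CPM with DMSO, and at 79.1, 110.4, 85.8 and 89.8 CPM in loaded libraries at 9 h, against 36.9, 30.1, 38.6 and 31.8 CPM. The groups did not overlap at either time, with log2 fold changes of 1.61 ± 0.08 and 1.40 ± 0.10 (adjusted p = 1.3e-14 and 8.64e-12). The difference between the times was -0.18 ± 0.14 (adjusted p = 0.46). With GSK205, loading still raised PMEPA1 over GSK205 alone, by 0.97 ± 0.08 at 3 h and 1.39 ± 0.10 at 9 h (adjusted p = 7.25e-10 and 1.32e-11). GSK205 alone raised it over DMSO by 0.38 ± 0.09 at 3 h (adjusted p = 0.00108), and the interaction was -0.64 ± 0.12 (adjusted p = 0.00252). The difference between loading with GSK205 and loading alone at 3 h, -0.26 ± 0.08 (adjusted p = 0.0267), was lost without loading library 2 or 3, without loading with GSK205 library 3 or 4, and with only those groups fitted (adjusted p up to 0.15).

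**Figure D2:**
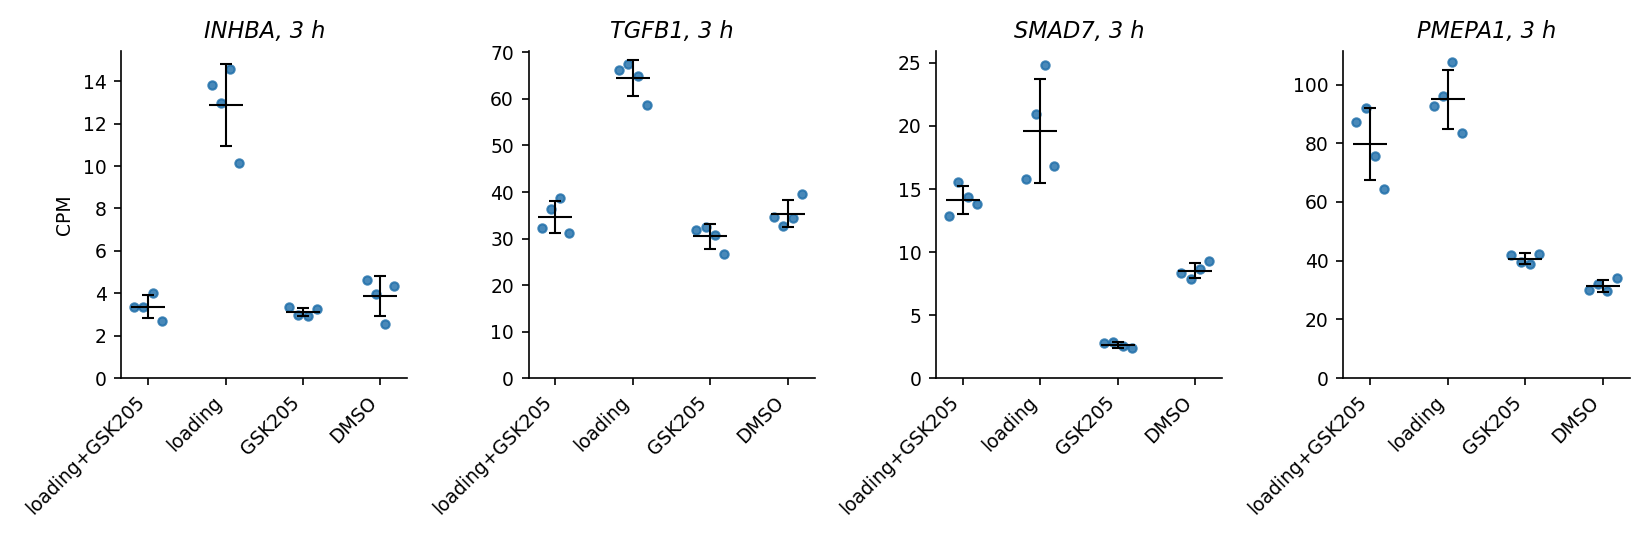
CPM of INHBA, TGFB1, SMAD7 and PMEPA1 in every library of 4 groups of the TRPV4 experiment at 3 h, with means (bars) and SDs (whiskers), axes starting at 0. For INHBA and TGFB1 the loading with GSK205 libraries lie with GSK205 and DMSO, while for SMAD7 and PMEPA1 they lie well above GSK205 alone.

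The nuclear co-repressors TGIF1 (chromosome 6, 103226395 to 103234591) and SKIL, also called SnoN (chromosome 13, 109029831 to 109059176), both repress SMAD target genes. TGIF1 stood at 102.0, 119, 142 and 123 CPM in loaded libraries at 3 h, against 50.03, 52.4, 51.07 and 50.3 CPM with DMSO (log2 fold change 1.26 ± 0.07, adjusted p = 3.34e-14). SKIL stood at 58.3, 58.0, 62.7 and 54.6 CPM with loading, against 26.9, 30.3, 26.4 and 22.3 CPM with DMSO (1.16 ± 0.09, adjusted p = 1.13e-10). No loaded library overlapped DMSO for either gene. GSK205 left these rises in place. Loading with GSK205 raised TGIF1 by 1.33 ± 0.07 and SKIL by 1.10 ± 0.09 over GSK205 alone (adjusted p = 1.1e-14 and 3.8e-10), and the interactions were 0.07 ± 0.10 and -0.06 ± 0.13 (95% intervals -0.12 to 0.26 and -0.31 to 0.19, adjusted p = 0.798 and 0.891). By 9 h the loading effect on TGIF1 was 0.25 ± 0.04 (adjusted p = 7.52e-05) and on SKIL 0.14 ± 0.08 (adjusted p = 0.191). Both were smaller than at 3 h, by 0.99 ± 0.08 for TGIF1 and 0.98 ± 0.12 for SKIL (adjusted p = 4.54e-13 and 1.57e-07). TGIF1 was the gene of the 10 whose 9 h interaction with GSK205 passed the test (-0.33 ± 0.06, adjusted p = 0.00145).

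Of the 9 genes tested, 6 rose with loading at 3 h and 0 fell, where 10.2% of all 16562 genes tested were called in either direction and 7.86% were called higher. TGFB2, TGFB3 and FSTL3 did not pass, at -0.12 ± 0.07, -0.03 ± 0.06 and 0.38 ± 0.13 (adjusted p = 0.297, 0.818 and 0.0565). Loaded libraries at 3 h held 31848889 to 66758428 counts, against 20651530 to 29904509 with DMSO. Their share of small noncoding RNA was 5.81 to 7.03%, against 8.08 to 13.7% with DMSO. The part of depth and small noncoding RNA in the loading results was not tested. At 9 h, 5 rose and 1, SMAD7, fell, where 23.7% of genes were called, 12.5% higher and 11.2% lower. In loading with GSK205 against loading, 4 fell at 3 h (15.3% of genes called, 8.16% lower). At 9 h TGFB1 and TGIF1 fell and TGFB3 rose (4.1% called), TGFB3 by 0.23 ± 0.05 and TGIF1 by -0.18 ± 0.04. The TGIF1 call was lost without loading library 1, without loading with GSK205 library 3 or 4, and with no filter on low counts (adjusted p up to 0.0717). The interaction passed the test for 4 of the 9 at 3 h and 1 at 9 h, where 2.25% and 4.64% of all genes did. Against GSK205 alone, loading with GSK205 changed 6 at 3 h and 4 at 9 h (11.9% and 18% of genes called). Besides the rises given above, TGFB2 was lower at 3 h, at 28.9 to 33.5 CPM against 37.9 to 38.4 CPM with GSK205 alone. SMAD7 was lower at 9 h, at 5.26 to 5.83 CPM against 7.17 to 9.605 CPM. With GSK205 alone against DMSO, 2 changed at 3 h and 4 at 9 h (27.1% and 21.2% called). At 9 h TGFB3 stood at 76.8 to 86.4 CPM with GSK205 alone and 60.5 to 68.5 CPM with DMSO. Loading with GSK205 gave 75.85 to 86.9 CPM, overlapping GSK205 alone. TGIF1 stood at 56.3 to 60.2 CPM with GSK205 alone and 50.05 to 54.7 CPM with DMSO at 9 h. TGFB1 was lower with GSK205 alone, at 25.5 to 28.5 CPM against 31.0 to 38.7 CPM.

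Nearly the whole set was higher with GSK101. At 3 h 8 of the 9 genes tested rose, where 40% of all genes were called in either direction and 22% were called higher. At 9 h all 9 rose, where 62.3% were called and 29.3% were called higher, so the counts alone say little and the sizes are given here. At 3 h the GSK101 libraries held 62677053 to 80223797 counts, against 20651530 to 29904509 with DMSO, and the share of small noncoding RNA was 4.74 to 6.45% with GSK101 and 8.08 to 13.7% with DMSO. The chondrocyte markers summed to 126100 to 139100 CPM with GSK101 and 97060 to 116900 CPM with DMSO at 3 h, and to 76770 to 79330 CPM with GSK101 and 87740 to 92000 CPM with DMSO at 9 h. Of the 10 tested, 6 rose at 3 h, and 2 rose and 5 fell at 9 h. The part of depth, small noncoding RNA and these markers in the GSK101 results was not tested. At 9 h depths were 22210499 to 31454500 with GSK101 and 24190041 to 35352928 with DMSO, and the changes there were larger for 8 of the 9 genes.

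The 3 TGF-beta ligand genes moved together under GSK101. TGFB1 stood at 124, 110.1, 117 and 121 CPM with GSK101 at 9 h, against 38.7, 31.2, 32.0 and 31.0 CPM with DMSO. TGFB2 (chromosome 10, 8306136 to 8435307) stood at 97.5, 95.8, 104 and 94.3 CPM, against 34.4, 34.0, 31.8 and 32.3 CPM. TGFB3 (chromosome 7, 99133873 to 99162239, overlapping IFT43) stood at 154, 155, 155 and 161 CPM, against 68.5, 60.5, 63.7 and 63.9 CPM. No GSK101 library overlapped DMSO for any of them. Their log2 fold changes were 1.80 ± 0.07, 1.54 ± 0.06 and 1.26 ± 0.05 at 9 h (adjusted p = 2.7e-21, 1.39e-21 and 1.01e-19), against 0.80 ± 0.08, 0.45 ± 0.07 and 0.58 ± 0.06 at 3 h. The increase of the effect between the times was 1.05 ± 0.11, 1.13 ± 0.09 and 0.73 ± 0.08 (adjusted p = 2.83e-11, 8.3e-16 and 2.93e-10).

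Among the inhibitors, SMAD7, PMEPA1 and TGIF1 rose with GSK101 by 0.79 ± 0.11, 0.50 ± 0.08 and 0.67 ± 0.07 at 3 h and by 1.59 ± 0.10, 1.66 ± 0.10 and 1.82 ± 0.04 at 9 h. PMEPA1 was tight at 9 h, with 110.0, 108.8, 109.8 and 111.8 CPM with GSK101. TGIF1 stood at 188, 189, 192 and 180.1 CPM with GSK101 at 9 h, against 54.7, 50.1, 51.0 and 53.0 CPM with DMSO. SKIL behaved differently in time. It rose by 0.51 ± 0.09 at 3 h and 0.43 ± 0.08 at 9 h (adjusted p = 3.74e-05 and 2.31e-05), and its effect differed between the times by -0.04 ± 0.13 (adjusted p = 0.841). FSTL3, which binds and neutralises activin (chromosome 2, 77656655 to 77662608, overlapping PRSS57), stood at 6.88, 10.1, 8.02 and 8.55 CPM with GSK101 at 9 h, against 5.89, 5.00, 4.37 and 6.15 CPM with DMSO. It rose by 0.63 ± 0.15 (adjusted p = 0.000619), far less than INHBA. FST, which encodes follistatin, the other neutralising protein (chromosome 16, 32806341 to 32811382), stayed at 0 to 0.382 CPM in GSK101 libraries and 0 to 0.182 CPM in DMSO libraries over both times.

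**Figure D3:**
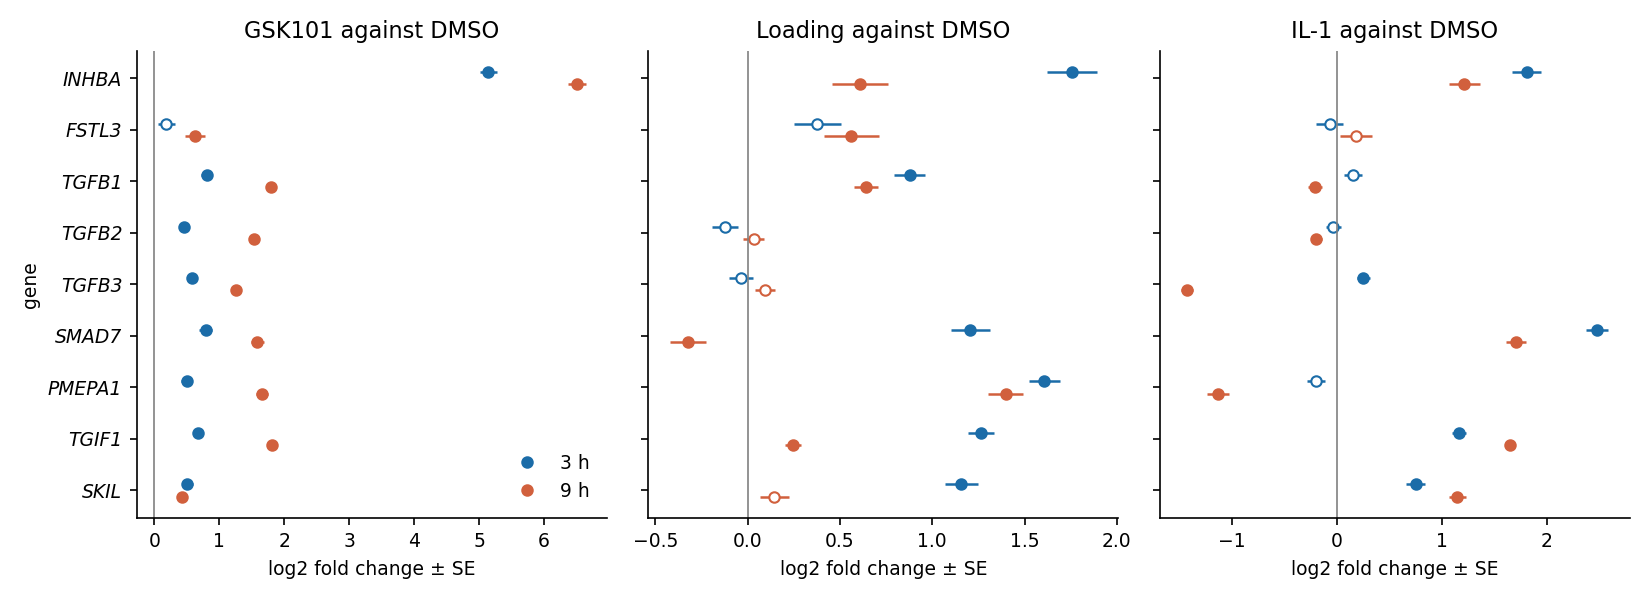
Log2 fold changes against DMSO at 3 h (blue) and 9 h (orange) for GSK101, loading and IL-1, with SEs as whiskers. Filled points passed the test at an adjusted p under 0.05 and open points did not. With GSK101 the 9 h points lie to the right for 8 of 9 genes, and with loading the 9 h points of INHBA, SMAD7, TGIF1 and SKIL lie to the left.

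With IL-1, SMAD7, TGIF1 and SKIL rose at both times. SMAD7 stood at 46.3, 45.1, 49.1 and 48.2 CPM at 3 h and 26.2, 24.9, 21.5 and 26.3 CPM at 9 h. None overlapped the DMSO libraries, and the log2 fold changes were 2.48 ± 0.11 and 1.71 ± 0.09 (adjusted p = 1.41e-18 and 8.56e-17). TGIF1 rose by 1.16 ± 0.07 and 1.65 ± 0.04 and SKIL by 0.75 ± 0.09 and 1.15 ± 0.08. SKIL reached 70.9, 69.8, 70.9 and 64.8 CPM with IL-1 at 9 h, against 28.7, 28.5, 31.2 and 34.1 CPM with DMSO.

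TGFB3 and PMEPA1 went down at 9 h with IL-1. TGFB3 had 27.6, 24.0, 22.7 and 23.2 CPM, all below the DMSO libraries named above, with a log2 fold change of -1.42 ± 0.06 (adjusted p = 8.92e-21). At 3 h the same gene had been higher with IL-1, by 0.25 ± 0.06 (adjusted p = 0.00256), and the change between the times was -1.64 ± 0.09 (adjusted p = 5.92e-22). PMEPA1 had 16.9, 15.4, 14.3 and 16.9 CPM at 9 h, with a log2 fold change of -1.13 ± 0.10 (adjusted p = 2.71e-11), and -0.20 ± 0.09 at 3 h (adjusted p = 0.0858). TGFB1 and TGFB2 were lower at 9 h by -0.21 ± 0.07 and -0.19 ± 0.06 (adjusted p = 0.00793 and 0.00315). The TGFB1 call was lost without DMSO library 1, which at 38.7 CPM stood above the other DMSO libraries (adjusted p = 0.0856). In all, 5 of the 9 genes changed with IL-1 at 3 h and 8 at 9 h, where 32.2% and 65.1% of genes were called. The IL-1 libraries at 9 h held 36091153 to 63598533 counts, against 24190041 to 35352928 with DMSO. The part of depth in the IL-1 results was not tested.

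Set against IL-1 directly at 9 h, GSK101 libraries were higher for TGFB3 by 2.68 ± 0.06, for PMEPA1 by 2.79 ± 0.10, for TGFB1 by 2.01 ± 0.07 and for TGFB2 by 1.73 ± 0.06 (adjusted p = 5.93e-28, 2.29e-21, 1.13e-22 and 4.23e-23). SKIL was lower with GSK101 than with IL-1 by -0.72 ± 0.08 (adjusted p = 1.5e-09), and SMAD7 differed by -0.12 ± 0.09 (95% interval -0.30 to 0.05, adjusted p = 0.254). At 3 h SMAD7 had been lower with GSK101 than with IL-1 by -1.69 ± 0.10 (adjusted p = 3.66e-15). Of the 9 genes, 8 differed between the treatments at each time, where 41.5% and 53.8% of all genes did. The fibroblast and synovium marker list, 6 of 7 found, summed to 1103 to 1230 CPM with IL-1 and 428 to 468 CPM with DMSO at 9 h. The leukocyte list, 7 of 7 found, summed to 88.2 to 98.1 CPM with IL-1 and 27.6 to 35.0 CPM with DMSO, and its member LYZ stayed under 0.1 CPM in every library. Of the members tested, 2 fibroblast markers rose and 2 fell, and 1 leukocyte marker rose and 1 fell, where 65.1% of all genes were called. The part of these markers in the IL-1 results was not tested.

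**Figure D4:**
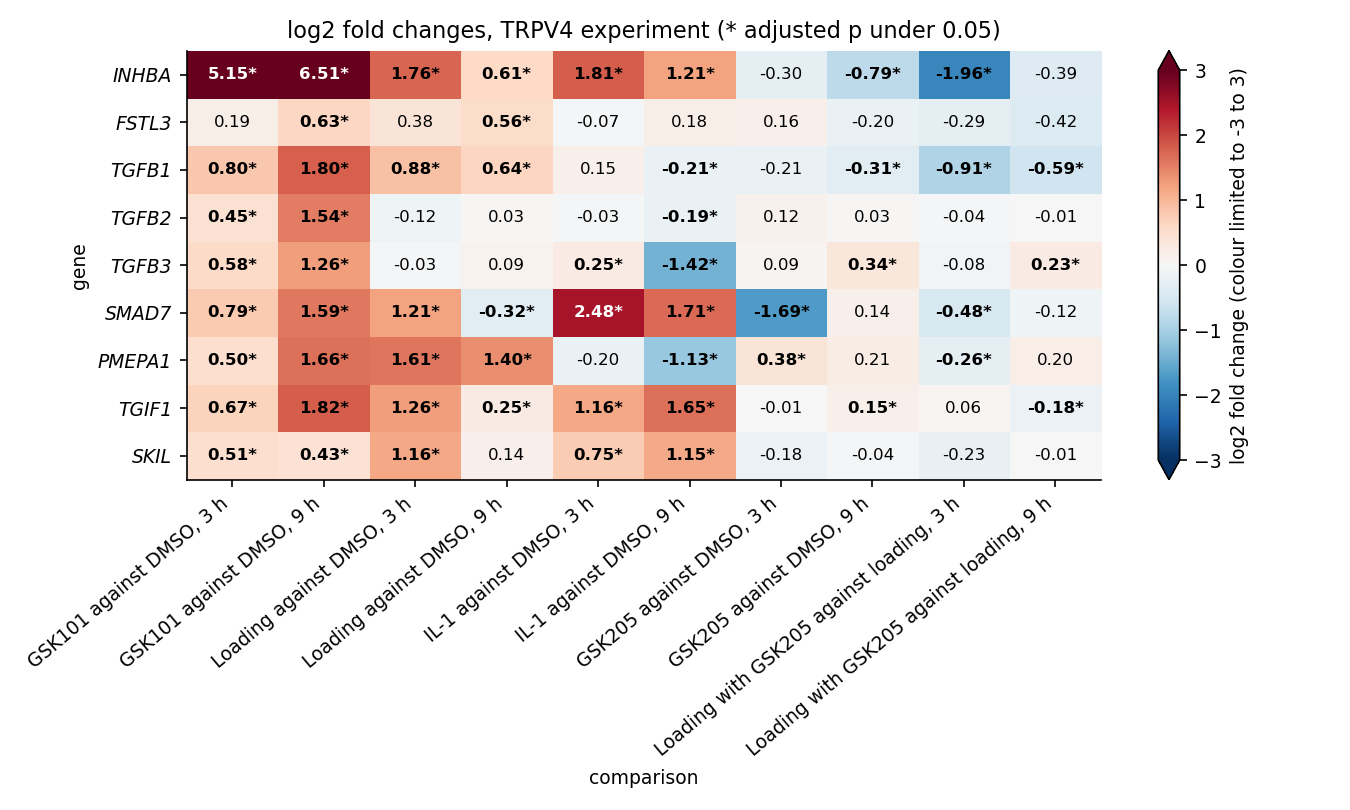
Log2 fold changes of the 9 tested genes (rows) in 10 comparisons of the TRPV4 experiment (columns), red for higher and blue for lower, with colour limited to -3 to 3 and the value printed in each cell. A star marks an adjusted p under 0.05. The GSK101 columns are red throughout, and in the IL-1 column at 9 h TGFB3 (-1.42) and PMEPA1 (-1.13) are blue beside red SMAD7, TGIF1 and SKIL.

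Other genes of the pathway were followed as a list of 65, of which 56 were tested in the TRPV4 experiment. It holds further ligands, latency proteins, receptors, SMADs with their regulators, and target genes. With GSK101 35 rose and 4 fell at 3 h and 33 rose and 8 fell at 9 h, where 40% and 62.3% of all genes were called and 22% and 29.3% were called higher, with medians of 0.30 and 0.30 beside 0.01 and -0.07 over all genes tested. Among the 19 target genes 13 rose and 2 fell at each time. CCN2, the connective tissue growth factor gene, rose by 3.78 ± 0.09 at 3 h, to 931 ± 54.1 CPM with GSK101 against 68.8 ± 8.80 CPM with DMSO, and by 4.31 ± 0.07 at 9 h. The transcription factor gene JUNB rose by 3.44 ± 0.12 at 3 h, and the cytokine gene IL11 by 3.30 ± 0.12 at 9 h.

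With loading at 3 h 14 of the 56 rose and 1 fell (median 0.10 beside 0.01), and 9 of the 19 target genes rose, where 10.2% of all genes were called and 7.86% were called higher. IL11 rose most, by 2.67 ± 0.18, to 26.8 ± 7.85 CPM in loaded libraries against 4.23 ± 0.43 CPM with DMSO. JUNB rose by 2.05 ± 0.11, and SPHK1, the gene of a sphingosine kinase, by 1.24 ± 0.15. With GSK205 during loading 8 target genes were lower than with loading alone and 1 was higher, where 15.3% of all genes were called and 8.16% were called lower. At 9 h with loading, 6 of the 56 were higher and 10 lower, where 12.5% of all genes were called higher and 11.2% lower. With IL-1 at 9 h 32 rose and 13 fell (median 0.33 beside -0.07), where 65.1% of all genes were called. JUNB rose by 3.50 ± 0.07, the parathyroid hormone-related protein gene PTHLH by 3.28 ± 0.13 and the cell cycle inhibitor gene CDKN2B by 3.02 ± 0.16. Of the 8 receptor genes tested 4 were lower and 3 higher with IL-1.

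Across the 12 group means of the TRPV4 experiment, genes among those most like INHBA by Pearson's r of log2(CPM + 1) were TENT5A (r = 0.971), the cytoplasmic actin gene ACTG1 (0.970), ABHD5 (0.965) and CLDN6 (0.965), of 4131 genes considered. Of the other genes of the set, TGFB1 was closest (r = 0.867), then TGFB2 (0.846), while PMEPA1 (0.247) and SKIL (0.281) were least alike. Over the 18 group means of the PIEZO1 experiment the order was another, with PMEPA1 (0.784), SMAD7 (0.754) and SKIL (0.694) closest, TGFB1 at 0.550 and TGFB3 at -0.608. These are descriptions over group means that share controls and span both times. The GSK101 groups weigh heavily in those of the TRPV4 experiment. In the PIEZO1 experiment SMAD7, SKIL, PMEPA1 and TGFB3 also differed between 3 h and 9 h in NT vehicle. The part of time in these values was not tested.

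In the PIEZO1 experiment the spread between libraries was larger, with a common biological coefficient of variation of 0.282 at 3 h and 0.3004 at 9 h, against 0.107 and 0.0874 in the TRPV4 experiment. Fewer genes passed there in most comparisons. Among the 10 genes, the largest change to compression or Yoda1 that passed the test was that of INHBA. In NT constructs at 3 h it stood at 93.1, 67.8, 71.2 and 50.1 CPM after compression, against 13.8, 24.2, 20.1 and 27.7 CPM in vehicle. The groups did not overlap, and the log2 fold change was 1.71 ± 0.18 (adjusted p = 1.23e-08). Yoda1 gave 56.1, 51.2, 49.2 and 51.3 CPM, also above every vehicle library, with a log2 fold change of 1.27 ± 0.18 (adjusted p = 6.75e-05). INHBA was the only one of the 10 genes called with Yoda1 in NT, where 0.409% of genes were called.

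INHBA was also higher in transfected cells than in NT cells without a stimulus. In siNTC vehicle constructs at 3 h it stood at 58.2, 55.4, 60.4 and 57.5 CPM, above every NT vehicle library (log2 fold change 1.43 ± 0.18, adjusted p = 2.24e-07). The fibroblast and synovium list summed to 692 to 772 CPM in these siNTC libraries and 1295 to 1364 CPM in the NT libraries, and the chondrocyte list to 27470 to 28350 CPM in siNTC and 33000 to 36780 CPM in NT. Of the 6 fibroblast markers tested 4 fell, and of the 10 chondrocyte markers 2 rose and 2 fell, where 7.53% of all genes were called. The part of these markers in the result was not tested. In these transfected cells compression gave 91.9, 87.7, 87.0 and 67.4 CPM and a difference from siNTC vehicle of 0.52 ± 0.17, which did not pass (adjusted p = 0.155) although the groups did not overlap. It passed where only those groups were fitted (adjusted p = 0.00817). Yoda1 in siNTC gave 65.6, 122, 73.1 and 66.0 CPM, a difference of 0.50 ± 0.17 that did not pass (adjusted p = 0.078). It passed without siNTC Yoda1 library 1 or 4 (adjusted p down to 0.0399). With siPIEZO1, compression gave 93.8, 94.2, 96.4 and 89.3 CPM, Yoda1 97.8, 134, 123 and 128 CPM, and vehicle 72.0, 62.2, 77.7 and 69.2 CPM. The Yoda1 difference in siPIEZO1 was 0.77 ± 0.17 (adjusted p = 0.0378), where 0.262% of genes were called. It was lost without siPIEZO1 vehicle library 1, 2 or 4, without siPIEZO1 Yoda1 library 2, 3 or 4, and with only those groups fitted (adjusted p up to 0.139). Compression in siPIEZO1 gave 0.40 ± 0.17 (adjusted p = 0.304).

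Neither siRNA interaction passed the test for INHBA at 3 h or 9 h. The compression interaction called 0% of all genes at 3 h and 1.09% at 9 h, and the Yoda1 interaction 0.938% and 0.0269%. PIEZO1 itself did not pass the test for a fall in vehicle at either time, so a need for PIEZO1 cannot be judged here. The response to compression differed between siPIEZO1 and siNTC by -0.12 ± 0.24 at 3 h (95% interval -0.59 to 0.35, adjusted p = 0.989) and 0.22 ± 0.35 at 9 h (adjusted p = 0.866). The response to Yoda1 differed by 0.27 ± 0.24 and -0.10 ± 0.35 (adjusted p = 0.66 and 0.961). At 9 h no stimulus changed INHBA beyond the threshold. NT constructs held 6.72, 27.2, 26.6 and 21.1 CPM after compression and 23.0, 11.4, 10.7 and 10.96 CPM in vehicle. In each group 1 library, compression library 1 and vehicle library 1, lay on the side of the other group. Without vehicle library 1 or without compression library 1 the difference passed (adjusted p down to 0.013), and with both it was 0.54 ± 0.25 (adjusted p = 0.255). In siNTC constructs the direction was the opposite, with 20.6, 20.1, 20.01 and 17.0 CPM after compression, all below the siNTC vehicle libraries (-0.54 ± 0.25, adjusted p = 0.198). In siPIEZO1 constructs INHBA stood at 39.2, 32.9, 35.8 and 37.9 CPM after compression, against 48.7, 44.9, 50.6 and 38.7 CPM in vehicle (-0.33 ± 0.24, adjusted p = 0.681). Yoda1 at 9 h gave 0.44 ± 0.25 in NT, 0.33 ± 0.25 in siNTC and 0.23 ± 0.24 in siPIEZO1 (adjusted p = 0.656, 0.970 and 0.749). The siNTC vehicle libraries at 9 h, at 31.3, 38.4, 21.8 and 22.0 CPM, overlapped NT vehicle, whose library 1 held 23.0 CPM. The log2 fold change of siNTC against NT was 1.00 ± 0.25 (adjusted p = 0.0114). That call was lost without NT vehicle library 2, 3 or 4 or siNTC vehicle library 2 (adjusted p up to 0.075).

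Of the TGF-beta ligands, TGFB1 passed the test with compression at 9 h and not at 3 h. TGFB1 stood at 58.3, 118, 109.9 and 81.9 CPM in compressed NT constructs at 9 h, against 55.8, 50.3, 53.0 and 51.1 CPM in vehicle, with a log2 fold change of 0.80 ± 0.13 (adjusted p = 0.000478). All 4 compressed libraries lay above vehicle, library 1 by little. In siNTC constructs it stood at 72.6, 83.9, 91.6 and 80.0 CPM with compression, against 52.7, 59.8, 51.2 and 40.7 CPM in vehicle, 0.69 ± 0.13 higher (adjusted p = 0.00212). In siPIEZO1 constructs the values were 94.4, 86.3, 90.3 and 87.7 CPM with compression and 87.5, 87.6, 81.6 and 69.9 CPM in vehicle, a difference of 0.14 ± 0.13 (adjusted p = 0.783). The response with siPIEZO1 differed from that with siNTC by -0.55 ± 0.19, which did not pass (95% interval -0.92 to -0.18, adjusted p = 0.155). The siPIEZO1 vehicle libraries were already higher than siNTC vehicle by 0.68 ± 0.13 (adjusted p = 0.000658).

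TGFB2 in siNTC constructs at 9 h fell to 130, 133, 102 and 122 CPM with compression, against 153, 181, 201 and 165 CPM in vehicle (-0.52 ± 0.11, adjusted p = 0.00356). At 3 h in NT it had been higher with compression, at 202, 199, 180.1 and 191 CPM, against 143, 145, 163 and 153 CPM (0.35 ± 0.09, adjusted p = 0.0175). That call was lost without NT vehicle library 1 or 2 or compression library 1 or 2 (adjusted p up to 0.083). TGFB3 in NT at 9 h was 0.44 ± 0.13 higher with compression (adjusted p = 0.041), with 56.1, 69.3, 86.9 and 56.2 CPM against 47.8, 43.5, 52.3 and 53.3 CPM, and was lost without any 1 vehicle library, without compression library 2 or 3, and with only those groups fitted (adjusted p up to 0.239).

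**Figure D5:**
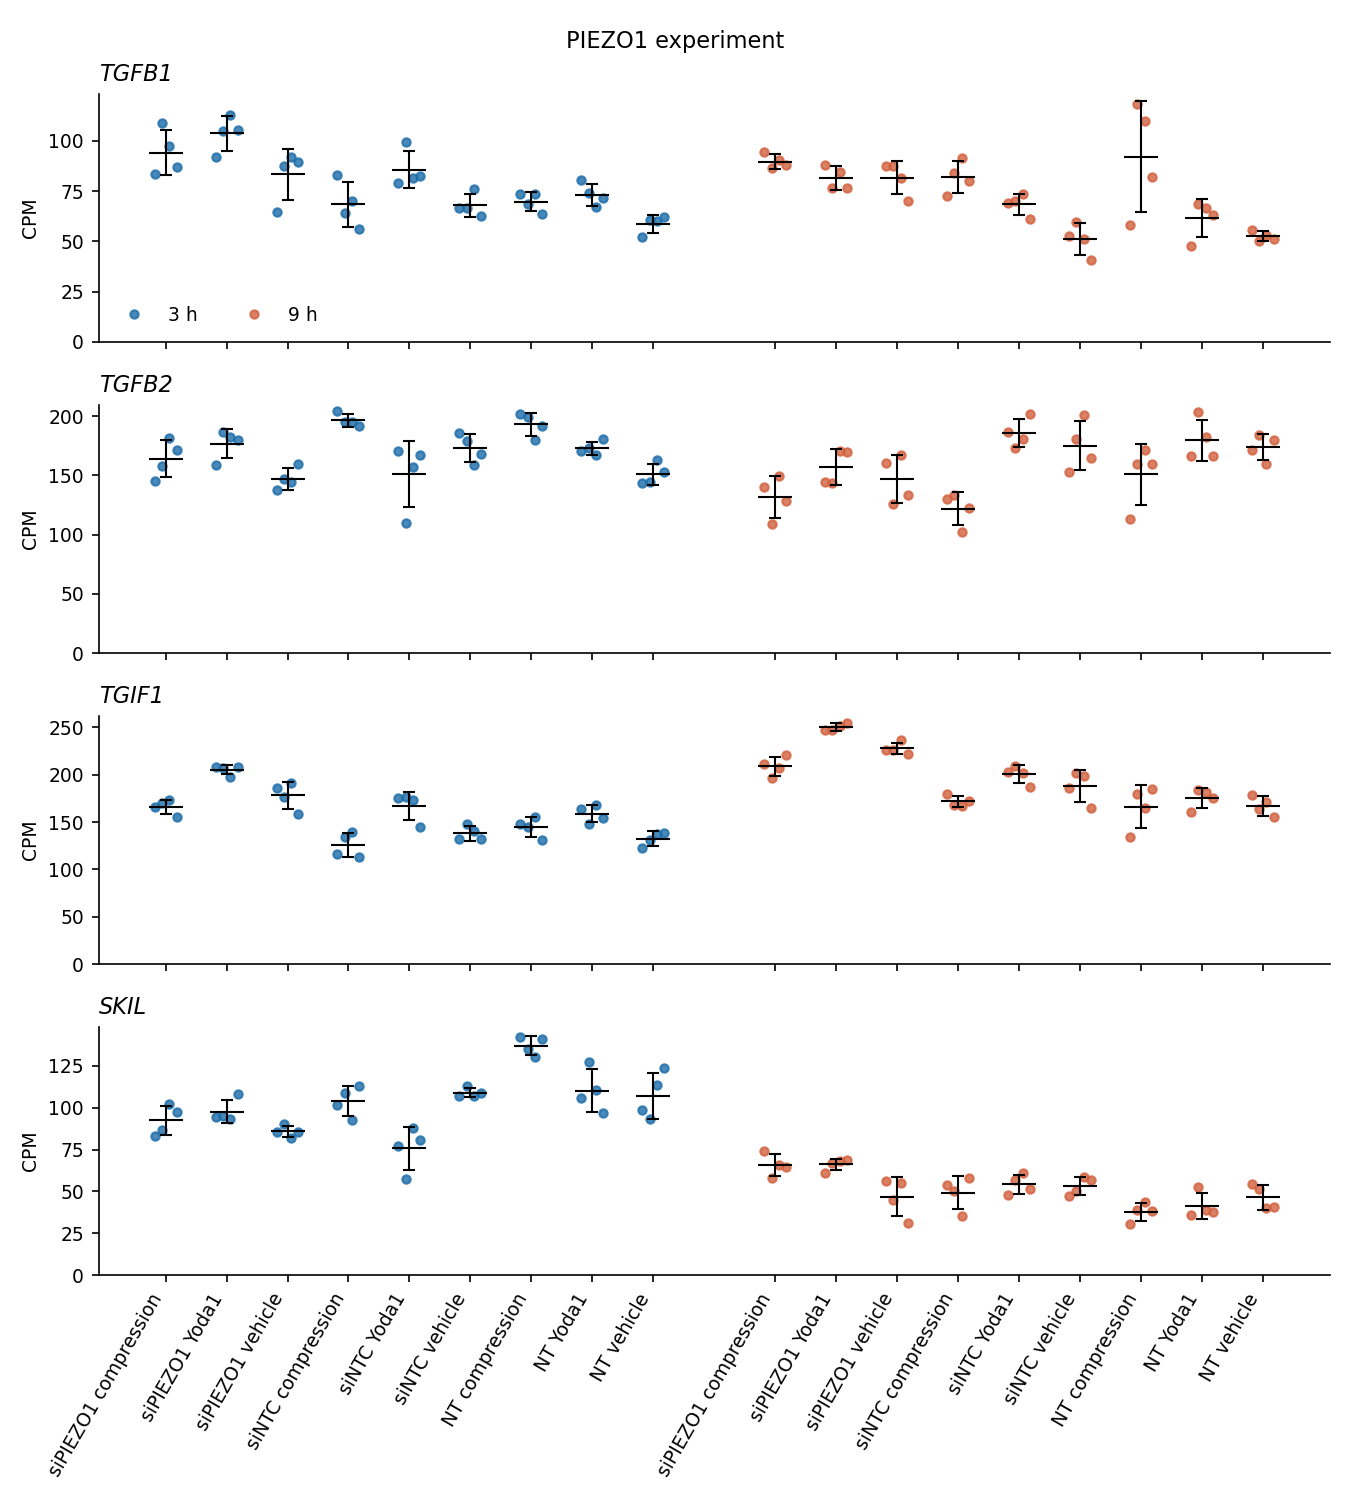
CPM of TGFB1, TGFB2, TGIF1 and SKIL in every library of the 18 PIEZO1 groups, 3 h in blue and 9 h in orange, with means (bars) and SDs (whiskers), axes starting at 0. At 9 h TGFB1 lies higher with compression in siNTC and NT constructs, SKIL lies lower at 9 h than at 3 h, and for each stimulus and time the mean of TGIF1 is highest in siPIEZO1 constructs.

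Among the inhibitors, SKIL passed the test with compression in NT and with Yoda1 in siNTC at 3 h. It stood at 142, 135, 130.2 and 141 CPM in compressed NT constructs, against 98.5, 93.2, 113 and 123 CPM in vehicle (0.34 ± 0.10, adjusted p = 0.033), a call lost without NT vehicle library 1, 2 or 3, without compression library 1, 2 or 4, and with no filter on low counts (adjusted p up to 0.178). With Yoda1 in siNTC it stood at 77.0, 57.7, 87.6 and 80.8 CPM, against 107, 113, 107 and 109 CPM in vehicle, a fall of -0.52 ± 0.10 (adjusted p = 0.0027). In siPIEZO1 it stood at 94.4, 94.8, 93.1 and 108 CPM with Yoda1, against 85.4, 90.4, 82.1 and 85.5 CPM in vehicle. The response to Yoda1 was thus higher with siPIEZO1 than with siNTC by 0.70 ± 0.14 (adjusted p = 0.0172), where 0.938% of genes were called. With only the groups compared in the fit both calls were lost (adjusted p = 0.0945 and 0.151), and the interaction was also lost without siPIEZO1 Yoda1 library 4 (adjusted p = 0.0509). At 9 h in siPIEZO1 SKIL stood at 58.3 to 74.4 CPM with compression and 61.3 to 68.7 CPM with Yoda1. Both lay above vehicle, at 31.5 to 56.4 CPM, and neither difference passed. In NT and siNTC at 9 h SKIL overlapped vehicle with either stimulus.

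TGIF1 was higher with siPIEZO1 than with siNTC in vehicle, at 186, 177, 191 and 159 CPM against 132, 148, 140.4 and 132 CPM at 3 h (0.38 ± 0.08, adjusted p = 0.00219). At 9 h it stood at 226, 226, 237 and 222 CPM against 185, 202, 199 and 165 CPM (0.28 ± 0.07, adjusted p = 0.00708). The groups did not overlap at either time. The 3 h call was lost with only those groups fitted (adjusted p = 0.0911), and the 9 h call without siNTC vehicle library 4 (adjusted p = 0.0678). Yoda1 in siNTC at 3 h raised TGIF1 by 0.28 ± 0.08 (adjusted p = 0.0328), a call lost without siNTC vehicle library 1, 3 or 4, without siNTC Yoda1 library 1, 2 or 3, with no filter on low counts and with only those groups fitted (adjusted p up to 0.169). Markers moved with the siRNA too. In vehicle at 3 h the fibroblast and synovium list summed to 268 to 420.1 CPM with siPIEZO1 and 692 to 772 CPM with siNTC, and the chondrocyte list to 15280 to 21600 CPM and 27470 to 28350 CPM. Of the 6 fibroblast markers tested 4 fell at 3 h and 5 at 9 h, where 5.07% and 10.8% of all genes were called. The part of these markers in the siPIEZO1 results was not tested.

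Of the 10 genes, compression in NT changed 3 at 3 h and 2 at 9 h, where 6.27% and 3.51% of all genes were called. In siNTC it changed 0 at 3 h and 2 at 9 h (0.911% and 6.43%), and in siPIEZO1 0 at both (0.6% and 2.18%). By DESeq2 the counts were 0 and 3 in siNTC and 0 and 1 in siPIEZO1, and at an unadjusted p under 0.05 edgeR gave 2 in siNTC at 3 h, and 2 and 1 in siPIEZO1. Yoda1 changed 2 in siNTC at 3 h (5.4%) and 0 at 9 h in NT, siNTC or siPIEZO1, where 0%, 0% and 2.54% of genes were called (edgeR, 0, 1 and 1 at an unadjusted p under 0.05, and 0, 0 and 1 by DESeq2). Neither siRNA interaction passed for any of the 10 at 9 h, where 1.09% of genes were called for compression and 0.0269% for Yoda1 (4 and 3 at an unadjusted p under 0.05, and 0 and 0 by DESeq2). Between siNTC and NT in vehicle 3 changed at 3 h (7.53%) and 1 at 9 h (5.3%). Besides INHBA, these were FSTL3 (-0.62 ± 0.15) and SMAD7 (-0.38 ± 0.09), lower in siNTC at 3 h. Between siPIEZO1 and siNTC in vehicle 1 changed at 3 h (5.07%) and 2 at 9 h (10.8%). INHBA was not among them, although its libraries did not overlap at either time. At 3 h it stood at 62.2 to 77.7 CPM with siPIEZO1 and 55.4 to 60.4 CPM with siNTC. At 9 h the values were 38.7 to 50.6 CPM with siPIEZO1 and 21.8 to 38.4 CPM with siNTC.

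The inhibitors differed between the times in this experiment. In NT vehicle constructs, SMAD7 stood at 10.9, 11.11, 9.90 and 10.7 CPM at 9 h, against 72.0, 72.7, 76.5 and 72.7 CPM at 3 h, a log2 fold change of -2.79 ± 0.14 (adjusted p = 1.56e-25). SKIL fell by 1.204 ± 0.13, PMEPA1 by 0.67 ± 0.09 and FSTL3 by 1.11 ± 0.16 (adjusted p = 3.98e-11, 2.57e-08 and 9.52e-08). TGFB3 rose, to 47.8, 43.5, 52.3 and 53.3 CPM at 9 h, against 14.3, 16.5, 18.0 and 16.4 CPM at 3 h (1.59 ± 0.14, adjusted p = 3.62e-15). TGIF1 rose by 0.34 ± 0.07 (adjusted p = 0.000533). FST, at 0.328, 0.334, 0.173 and 0.238 CPM at 9 h, against 1.44, 0.635, 0.874 and 0.560 CPM at 3 h, fell by 1.71 ± 0.58 (adjusted p = 0.0306), a call lost without any 1 of 4 libraries, NT vehicle libraries 1 and 3 at 3 h and 3 and 4 at 9 h, and with no filter on low counts (adjusted p up to 0.146). In all 7 of the 10 genes changed, where 16.1% of genes were called. The fibroblast and synovium list summed to 1847 to 2030 CPM in NT vehicle at 9 h and 1295 to 1364 CPM at 3 h, with 2 of 6 tested markers higher and 1 lower, and its part in these changes was not tested. In the DMSO groups of the TRPV4 experiment 1 of 9 changed between the same times, TGFB3 (-0.23 ± 0.06, adjusted p = 0.00301), where 22.2% of genes were called.

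The responses changed with time as well. GSK101's effect differed between 9 h and 3 h for 8 of 9 genes (45.8% of genes called), loading's for 4 (10.1%), IL-1's for 7 (38.8%) and that of compression in NT for 4 of 10 (9.21%). For compression in NT the effect at 9 h was lower than at 3 h for INHBA (-1.17 ± 0.32, adjusted p = 0.011), TGFB2 (-0.56 ± 0.15, adjusted p = 0.00921) and SKIL (-0.65 ± 0.18, adjusted p = 0.0143). It was higher for TGFB1 (0.56 ± 0.18, adjusted p = 0.0335). The INHBA difference was lost without NT vehicle library 1 of 9 h and with only those groups fitted (adjusted p up to 0.0836), and the TGFB1 difference with only those groups fitted and without NT vehicle library 2, 3 or 4 or compression library 2 of either time, compression library 4 of 3 h or compression library 3 of 9 h (adjusted p up to 0.196).

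Of the pathway list, 56 of 65 were tested in the PIEZO1 experiment at 3 h. With compression in NT 9 rose and 1 fell at 3 h (median 0.16 beside -0.04 over all genes), and 3 rose and 5 fell at 9 h (-0.03 beside 0.00). Of all genes 6.27% and 3.51% were called in these comparisons. At 3 h PTHLH rose by 1.12 ± 0.13, to 61.8 ± 9.12 CPM against 28.2 ± 4.43 CPM. SMAD3, one of the transcription factors that activin and TGF-beta share, rose by 0.90 ± 0.15, and the receptor gene TGFBR1 by 0.71 ± 0.19. At 9 h ANGPTL4 rose by 1.03 ± 0.28 and the stress-induced GADD45B by 0.89 ± 0.17, while CCN2 fell by 0.64 ± 0.10, to 226 ± 21.2 CPM against 349 ± 35.8 CPM. Across the 18 group means of the PIEZO1 experiment, the genes most like INHBA were GPRC5A (r = 0.966), TSC22D1 (0.964), the glutamine synthetase gene GLUL (0.957), the Wnt receptor gene FZD4 (0.953) and the heat shock co-chaperone gene DNAJB1 (0.952), of 3238 considered. None of these 5 was among those named for the TRPV4 experiment.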

How the data were processed

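RNA of 120 libraries of pig chondrocytes was sequenced, and gene counts were deposited as 1 table. Per the submitters' processing notes the authors used Trim Galore, STAR and HTSeq with Sscrofa11.1, and the deposited values are raw read counts per gene. For tool versions and strandedness the entry is: not given in the sources used here. Thus overlapping genes (FSTL3, TGFB1, TGFB3, and PIEZO1 with CTU2) may share reads. Per the labels' protocols, TRPV4 libraries were made after ribosomal RNA removal with random hexamers, and PIEZO1 libraries with a low-input SMARTer kit from 10 ng of RNA, although the molecule label is polyA RNA for both. Of 32388 lines, 481 were identical repeats and were dropped, leaving 31907 gene identifiers. Low counts were even more often than odd, 66.1 to 74.8% of the counts from 1 to 20 in the TRPV4 experiment and 52.3 to 63.2% in the other, and the cause was not tested.

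Each experiment and time was fitted apart in edgeR 4.0.16 (R 4.3.3) with 1 term per group, TMM scaling and filterByExpr at a minimum count of 10. Contrasts between times used a fit over both times of an experiment. Quasi-likelihood tests were adjusted by Benjamini-Hochberg over all genes of a contrast (16562 and 16540 genes at 3 h and 9 h in the TRPV4 experiment, 18330 and 18611 in the PIEZO1 experiment) and called at an adjusted p under 0.05. All groups of a fit share 1 estimate of the spread. SEs are the size of the log2 fold change divided by the square root of F, and 95% intervals are normal intervals on these SEs. The fits were tested on simulated data.

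The 10 genes and the other lists were chosen with earlier results of these data known. All 10 are described. From the pathway list the 3 genes with the largest log2 fold change among those called are named for 6 comparisons, and the 5 genes most like INHBA are named for each experiment. Of these, 1 gene that these rules name is not reported here. Of the listed genes 3 had no line in the table. Alternatives were DESeq2 1.42.0, its size factors in edgeR, no filter on low counts, protein-coding genes only, a fit of only the groups compared, a replicate block and leaving out each library in turn. Replicate numbers come from the sample titles. They were not taken to pair libraries, because in no comparison was every pair's correlation over 0.1. Positions are RefSeq's for Sscrofa11.1.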

Additional observations from a re-analysis of the deposited data

Results flagged for a closer look

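A library far from the others of its group was found in 15 of 300 gene and group combinations, and chance flags about 1 in 20. For INHBA these were 108.8 CPM with GSK101 at 3 h (others 140.1 to 145.1), 12.96 with IL-1 at 3 h (13.47 to 13.56), 122.1 with Yoda1 in siNTC at 3 h (65.62 to 73.1), 22.96 in NT vehicle at 9 h (10.72 to 11.39) and 16.96 after compression in siNTC at 9 h (20.01 to 20.63). For TGFB1 it was 38.66 CPM with DMSO at 9 h (30.97 to 31.97), and for TGFB2 32.13 with DMSO at 3 h (36.12 to 36.8). For SMAD7 these were 76.48 CPM in NT vehicle at 3 h (72.03 to 72.66), 6.831 with DMSO at 9 h (7.556 to 7.674) and 8.087 after compression in NT at 9 h (12.93 to 13.16). PMEPA1 had 803.2 CPM in 1 siPIEZO1 vehicle library at 3 h (1057 to 1089). TGIF1 had 145.0 CPM with Yoda1 in siNTC at 3 h (173.1 to 175.9) and 198.0 with Yoda1 in siPIEZO1 at 3 h (207.2 to 208.4). SKIL had 108.1 CPM with Yoda1 in siPIEZO1 at 3 h (93.1 to 94.8) and 52.72 with Yoda1 in NT at 9 h (36.27 to 38.68).

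The remaining results are log2 differences between effects that passed edgeR's quasi-likelihood test of the difference itself. Between loading with and without GSK205 at 3 h they were -1.659 for INHBA, -0.6984 for TGFB1, 1.213 for SMAD7 and -0.6406 for PMEPA1 (adjusted p = 2.58e-05, 0.00146, 6.66e-05 and 0.00252), and at 9 h -0.3251 for TGIF1 (adjusted p = 0.00145). Between Yoda1 in siPIEZO1 and in siNTC at 3 h it was 0.7035 for SKIL (adjusted p = 0.0172).

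Between 9 h and 3 h of GSK101 the effect differed by 1.405 for INHBA, 0.4899 for FSTL3, 1.045 for TGFB1, 1.129 for TGFB2, 0.7257 for TGFB3, 0.8414 for SMAD7, 1.208 for PMEPA1 and 1.195 for TGIF1. The FSTL3 difference (adjusted p = 0.0447) was lost in 11 of its alternatives, 10 of them with 1 library left out (adjusted p up to 0.144). For loading the differences were -1.117 for INHBA, -1.499 for SMAD7, -0.9853 for TGIF1 and -0.9828 for SKIL. For IL-1 they were -0.5583 for INHBA, -0.3229 for TGFB1, -1.638 for TGFB3, -0.7294 for SMAD7, -0.9002 for PMEPA1, 0.5275 for TGIF1 and 0.4353 for SKIL. The INHBA difference (adjusted p = 0.0375) was lost with DESeq2, with its size factors and without DMSO library 3 of 3 h, DMSO library 1 or 3 of 9 h or IL-1 library 3 or 4 of 9 h (adjusted p up to 0.147). The TGFB1 difference (adjusted p = 0.0201) was lost without IL-1 library 3 of 3 h or DMSO library 1 of 9 h (adjusted p up to 0.0846). For compression in NT they were -1.169 for INHBA, 0.5644 for TGFB1, -0.5572 for TGFB2 and -0.6529 for SKIL.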

How the results depend on the processing

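Of 400 tests of the 10 genes 136 were called, and 112 of these calls held in every alternative. No called value changed sign. Calls held in 135 of 136 with DESeq2 and with its size factors, 129 with no filter, 125 with only the groups compared, and 136 with protein-coding genes only and with the replicate block. Of 4174 values that were not called, 217 changed sign. The cause of the changes below was not tested.

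Some counts of genes called moved. For siPIEZO1 against siNTC at 3 h the count was 2 with DESeq2 and with its size factors and 0 with only the groups compared, against 1. With only the groups compared it was 0 for Yoda1 in siNTC at 3 h (1 with no filter), 0 for Yoda1 in siPIEZO1 at 3 h, 0 for the Yoda1 by siRNA interaction at 3 h, 1 for compression in siNTC at 3 h, 1 for compression in NT at 9 h, 2 for siNTC against NT at 9 h and 2 for the change of the compression effect with time. With DESeq2 it was 1 for compression and 1 for Yoda1 in siPIEZO1 at 9 h, and 2 for siNTC against NT at 9 h. With each library left out in turn the count ran from 1 to 3 for compression in NT at 3 h and at 9 h, 1 to 3 for Yoda1 in siNTC at 3 h, 1 to 3 for siPIEZO1 against siNTC at 9 h and 1 to 2 at 3 h, 0 to 1 for Yoda1 in siPIEZO1 at 3 h and 9 h, 0 to 1 for compression in siPIEZO1 at 9 h, 0 to 2 for the Yoda1 by siRNA interaction at 3 h, 0 to 1 for siNTC against NT at 9 h, 1 to 2 for DMSO over time and 1 to 2 for the loading by GSK205 interaction at 9 h.

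The replicate block moved no count of the 10 genes. It called INHBA in NT vehicle at 9 h against 3 h (-0.63 ± 0.23, adjusted p = 0.0479), where the fit without it gave -0.62 ± 0.23 (adjusted p = 0.0508). Over all genes the block gave 230 calls against 372 for the loading by GSK205 interaction at 3 h, 1043 against 653 for compression in NT at 9 h, 88 against 5 for the Yoda1 by siRNA interaction at 9 h, and 3 against 0 for Yoda1 in NT at 9 h. With only the groups compared, all-gene counts at 3 h were 1021 against 1683 for loading, 210 against 75 for Yoda1 in NT, 309 against 167 for compression in siNTC, 21 against 989 for Yoda1 in siNTC, 2 against 110 for compression and 7 against 48 for Yoda1 in siPIEZO1, 244 against 929 for siPIEZO1 against siNTC, and 3 against 172 for the Yoda1 by siRNA interaction. At 9 h they were 419 against 653 for compression in NT, 589 against 1196 in siNTC, 2 against 472 for Yoda1 in siPIEZO1, 1313 against 2017 for siPIEZO1 against siNTC, 44 against 202 for the compression by siRNA interaction and 0 against 5 for that of Yoda1. DESeq2 gave 185, 320, 235, 113, 1 and 315 calls at 3 h for Yoda1 in NT, compression in siNTC, compression in siPIEZO1, Yoda1 in siPIEZO1 and the compression and Yoda1 by siRNA interactions. At 9 h it gave 1059 for loading with GSK205 against loading, 16 and 2 for Yoda1 in NT and siNTC, 614 and 750 for compression and Yoda1 in siPIEZO1, and 372 and 71 for the interactions. The Yoda1 by siRNA interaction at 9 h gave 16 calls with no filter and 2 with protein-coding genes, and Yoda1 in NT at 9 h gave 1 with protein-coding genes. The loading by GSK205 interaction at 3 h split into 148 higher and 224 lower, against 157 and 131 with DESeq2 size factors and 177 and 131 with protein-coding genes. With 1 library left out, all-gene counts in the PIEZO1 experiment moved widely, for Yoda1 in NT at 3 h from 13 to 394 against 75. FST had at most 68 counts in a library, and the part of depth in its results was not tested.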
